A study of Anser sp. with 4 samples.

Results

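The late peak comprised 186 transcript identifiers whose signal in goose ventral skin stood highest at 10 days after molt, out of 20408 identifiers detected on at least 1 of 4 arrays and 31550 carried by the array design. The members were selected on their measured levels. The level of an identifier is the log2 processed signal minus the 75th percentile of its array, averaged over the probes in use and set to -3.7 where it was lower, so that 0 is the 75th percentile of an array and 1 step is a 2-fold difference. An identifier was a member when its level at 10 days exceeded the highest of the levels before molt, at 1.5 days and at 5 days by at least 1.0. That difference is called its margin. All 4 arrays entered this choice, so the values below describe the members and no test was made.

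The skin came from female Wanxi-White geese and was excised from the ventral side before molt and at 1.5, 5 and 10 days after it, with 1 array per time. The labels give 6 geese kept in a pen of their own and sampled at each time, on a maize and soybean diet with free access to feed and water, and do not say whether RNA was pooled or how old the birds were at sampling. None of the groups carried a treatment or a genotype label, and the groups differed by time alone. A difference between arrays therefore holds the difference between skin samples as well as that between times, and in whole skin fewer cells of a type and less RNA per cell cannot be told apart.

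A feather is rebuilt after molt from its follicle, a pocket of skin in which a dermal papilla at the base signals to a collar of dividing epidermal cells. These cells move upward, arrange themselves into barb ridges and fill with feather keratins, while a vascular pulp feeds the growing shaft and is later resorbed. Skin sampled as regrowth goes on thus mixes growing follicles with epidermis, dermis, fat, muscle and blood cells. The files pair 0 of the identifiers with a gene symbol, so the members are described here by level, by profile and by probe, and their roles in these steps are not given.

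Across the slide 18896 identifiers were well above background before molt by the scanner program's flag, 18502 on the array of 1.5 days, 17085 on that of 5 days and 18020 on that of 10 days. An identifier counted as well above background on an array when at least 1 of its probes in use was flagged so. The 75th percentile of the processed signal was 124.6 before molt and 134.1, 104.8 and 109.4 at 1.5, 5 and 10 days, and 0 spots were saturated. With 1 array per group, precision is limited by the number of arrays.

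The probes were designed on the chicken genome, so a low signal from goose RNA need not be a low transcript level. The members were mostly dim in signal before the last array. Their median level was -2.84 before molt, then -3.14 and -3.36 at 1.5 and 5 days, and -1.26 at 10 days. Over all detected identifiers the medians were -1.02, -1.13, -1.12 and -1.06 in the same order. The members' medians thus lay well under these on the first 3 arrays and close to them at 10 days. The choice favours this contrast, so nothing is read from it. All 186 were well above background at 10 days, 139 before molt, 134 at 1.5 days and 103 at 5 days. The shares of members in view were 74.7%, 72.0% and 55.4% before molt, at 1.5 and at 5 days. Among all detected identifiers the shares were 92.6%, 90.7% and 83.7%, so both were lowest at 5 days. A rule that asks for lower levels on these arrays favours poor detection there. Since the members had to be higher at 10 days, their detection at that time follows from the choice.

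By detection the members fell into 3 kinds. On all 4 arrays 94 were well above background, with a median level of -1.66 before molt, then -2.23 at 1.5 days, -2.05 at 5 days and -0.17 at 10 days. Another 33 were well above background at 10 days only, where their median level was -2.31 and the highest was 0.34. The remaining 59 were in view at 10 days and on 1 or 2 other arrays, most often before molt and at 1.5 days but not at 5 days, which was the case for 27. Where an identifier has several probes, the probe in view need not be the one that rose. With only probes well above background on every array, 85 of the 94 were highest at 10 days and 9 were not, and 80 kept the 2-fold margin. Of the 269 identifiers seen at 10 days alone, 12.3% were members, against 0.592% of the 15874 seen on all arrays. Identifiers seen at 10 days alone were dim on the other arrays, which the choice favours, so nothing is read from this contrast. Levels at the floor of -3.7 on all 3 other arrays were found for 41 members, whose margins are limited by the floor.

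**Figure D1:**
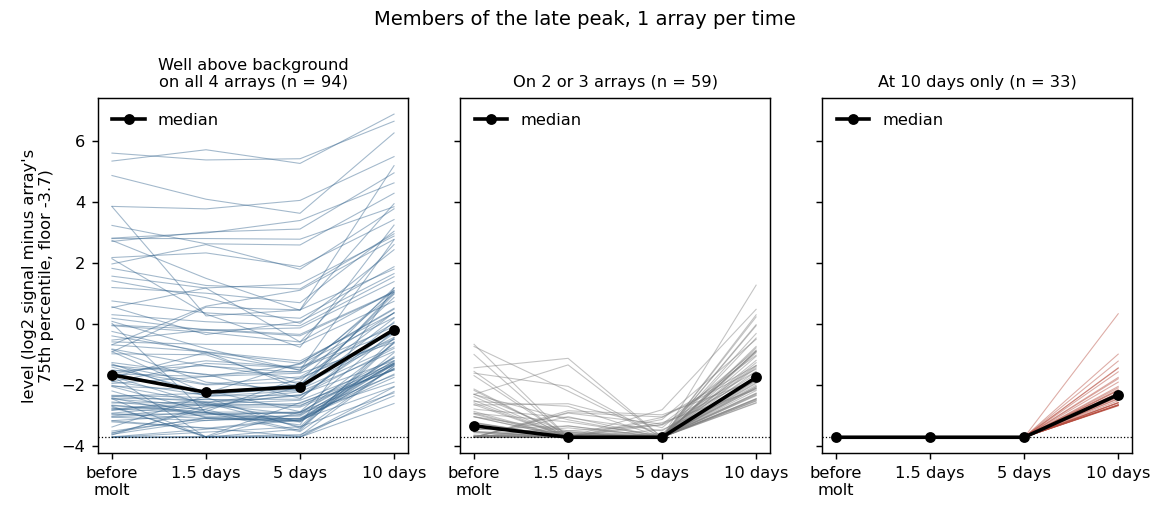
Level (log2 processed signal minus the array's 75th percentile, floor at -3.7 drawn as a dotted line) of each of the 186 members on the 4 arrays, with members seen on all 4 arrays on the left (94), on 2 or 3 arrays in the middle (59) and at 10 days only on the right (33). Thin lines are identifiers and the thick line is the median, which in the left panel is -1.66 before molt and -0.17 at 10 days.

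CR524095, read by 1 probe, had the largest margin. Its processed signal was 6.58 before molt, 6.61 at 1.5 days and 3.77 at 5 days, with error estimates by the scanner program of 1.90, 1.96 and 2.03, and none of these was well above background. At 10 days the signal was 138.6 with an error estimate of 14.0, which put the identifier at 0.34, just over the 75th percentile of the array. The first 3 arrays thus lay close to one another near background and the fourth stood far from them. Set against the lowest level well above background on each other array, the level at 10 days was 15.9-fold higher or more. Those lowest levels are no strict limit, since some spots above them were not flagged as well above background. After a different background correction with an offset of 50 (normexp, described further on), the margin was 1.30 in place of 4.04 on the log2 scale.

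CR385787 followed the same course at lower signal. It was read by 1 probe, whose processed signal was 3.13 before molt, 3.19 at 1.5 days and 2.02 at 5 days, again not well above background, and 55.5 with an error estimate of 5.81 at 10 days. Set against the same lowest levels, its level at 10 days of -0.98 was 6.35-fold higher or more. With the offset of 50 its margin was 0.78, under the 1.0 that the choice of members requires.

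Most members exceeded the requirement by little. The median margin was 1.28, a 2.43-fold difference, with quartiles of 1.12 and 1.56. From 1.0 to under 1.5 lay 130 members, 39 reached 1.5 but not 2, 16 lay from 2 to under 3, and CR524095 alone passed 3. Just inside the threshold the margins were 1.004, 1.012 and 1.013, and just outside it 0.999962, 0.998 and 0.996. There were 39 members under 1.1 and 60 identifiers from 0.9 to under 1.0, so the group has no natural edge.

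Peaks of the same size at other single times were counted in the same way. The 186 members made up 0.911% of the identifiers compared. Before molt 773 identifiers stood 2-fold above every other array, at 1.5 days 99 and at 5 days 130. The late peak was thus larger than the peaks at 1.5 and 5 days and smaller than the group highest before molt, a difference in counts that has no replicate behind it. The rule also limits these counts. Only the 563 identifiers 2-fold higher at 5 than at 1.5 days could peak at 5 days, and only the 586 lower ones at 1.5 days. The late peak could draw on 846 identifiers 2-fold above before molt.

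Most identifiers that stood above both middle arrays at 10 days had not passed the starting skin by 2-fold. The level at 10 days exceeded that at 1.5 and at 5 days by 2-fold or more in 1136 identifiers (5.57% of all compared). Of these, 805 (70.9%) were within 2-fold of their level before molt, 145 were still at least 2-fold below it and the 186 members (16.4%) had passed it by 2-fold. Seen from the starting skin, 846 identifiers exceeded it by 2-fold or more at 10 days, 4.15% of all compared, and the 186 members are part of these. Already at 1.5 or 5 days 509 of the 846 (60.2%) were 2-fold above the starting level, among them 5 members described further on.

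The members' difference from each array at 10 days is given as a description, because the choice fixed its direction. Against before molt the median was 1.40 (quartiles 1.18 and 1.80), against 1.5 days 1.63 (1.28 and 2.03), and against 5 days 1.67 (1.34 and 2.31). All 186 were 2-fold higher in each of these differences, where 4.15%, 8.6% and 8.55% of all identifiers were. At 4-fold, 31 members were higher than before molt, 53 higher than at 1.5 days and 59 higher than at 5 days, with 0.382%, 1.56% and 2.37% of all identifiers past that mark. Nothing is read from these shares, which the choice set.

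**Figure D2:**
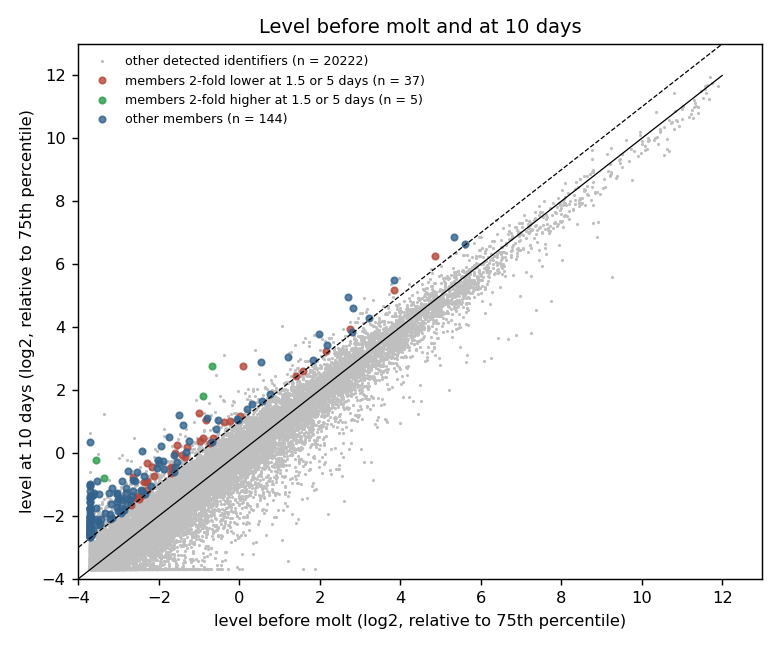
Level before molt (x axis) and at 10 days (y axis), both log2 relative to the array's 75th percentile, for 20222 other detected identifiers (grey) and the 186 members (coloured by their course at 1.5 and 5 days). The solid line marks equal levels and the dashed line a 2-fold higher level at 10 days, above which all members lie, most of them at the dim end.

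Over the first 3 arrays, 142 of the 186 members varied by less than 2-fold (76.3%, against 72.7% of all detected identifiers), and 41 of these were at the floor throughout. Without identifiers at the floor on all 3, it was 101 of 145 members (69.7%) against 71.5% of 19536 detected identifiers, shares that lie close together. The median change of the members was -0.02 from before molt to 1.5 days, -0.04 from before molt to 5 days and 0.0 from 1.5 to 5 days, and over all identifiers it was 0.0 in each. Among the 94 members seen on all arrays the medians were -0.16, -0.26 and -0.01, where those of all 15874 identifiers seen on all arrays were 0.06, 0.05 and -0.02.

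A smaller set fell first and then passed its starting level. There were 37 members at least 2-fold lower at 1.5 or 5 days than before molt, 18 of them at both times, 15 at 5 days only and 4 at 1.5 days only. These were 19.9% of the members, with 15.5% of all detected identifiers. At 1.5 days 22 members were lower than before molt (11.8%, with 12.2% of all identifiers) and at 5 days 33 (17.7%, with 12.5% of all). The share at 1.5 days was near that of all identifiers and the share at 5 days was above it, and nothing particular to the members is read from them. The 37 had a median level of -1.43 before molt, of -2.40 and -3.12 on the middle arrays and of -0.02 at 10 days. Only 20 of them were well above background on all arrays, so for the others the size of the fall is uncertain.

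The deepest fall among members seen on all arrays belonged to an identifier named by a RefSeq mRNA and read by 2 probes. Its level was 3.85 before molt and 0.27, 0.46 and 5.19 at 1.5, 5 and 10 days. It was therefore low on both middle arrays and high on both outer ones, and both of its probes were highest at 10 days, with margins of 1.09 and 1.58. Another member with 1 probe had processed signals of 127.0 before molt, then 18.0 at 1.5 days, 10.67 at 5 days and 249.1 at 10 days, with error estimates of 12.8, 2.56, 2.17 and 25.0. That member was likewise low on both middle arrays, though lowest at 5 days, and 10 days stood 2.23-fold above the starting level.

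Members that climbed in steps were few. Only 5 were at least 2-fold above before molt at 1.5 or 5 days, 3 of them at both times (2.69% of the members, with 10.9% of all identifiers). At 1.5 days 3 members were higher (1.61%, with 7.66% of all), and all 5 were at 5 days, with 8.0% of all. A low share follows in part from the choice, since an early rise raises the level that 10 days has to exceed. The member with the largest early rise had processed signals of 78.1 before molt and 201.6, 226.2 and 749.3 at 1.5, 5 and 10 days, with error estimates of 7.97, 20.2, 22.7 and 74.9. After scaling its levels were -0.67, 0.59, 1.11 and 2.78, each above the one before, and 10 days stood 3.17-fold above 5 days. From 1.5 to 5 days 2 members were 2-fold higher and 10 lower, with 2.76% and 2.87% of all identifiers.

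**Figure D3:**
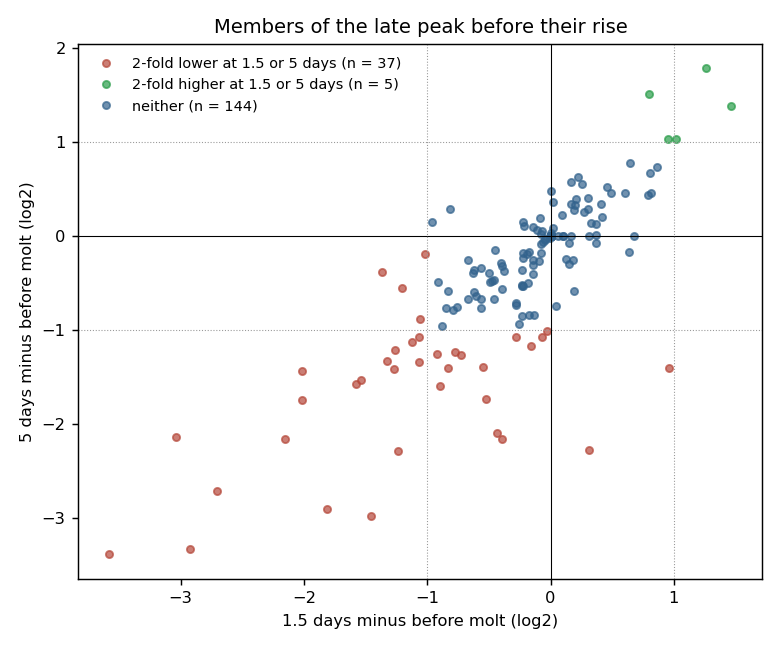
Change from before molt to 1.5 days (x axis) and to 5 days (y axis) in log2 units for the 186 members, with dotted lines at 2-fold. Most points (144) lie inside the dotted square, 37 reach below or left of it and 5 reach above or right of it.

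The array that came second to 10 days was most often the skin before molt. Leaving out the 41 members at the floor on all 3 arrays, the second highest level was before molt for 86 of 145 members, at 1.5 days for 31 and at 5 days for 28. Over all detected identifiers, peaks on a single array were also more frequent before molt (773) than at 1.5 days (99) or 5 days (130). The share of all identifiers with the same order was not counted, so nothing particular to the members is read from it.

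Few members were bright on every array. At 10 days 50 members were above the 75th percentile and 14 were more than 3 above it. On every array 17 members were above the 75th percentile, which is 0.276% of the 6168 identifiers of that brightness. The choice asks for lower levels on 3 of the arrays and so limits this share, and nothing is read from it. The margins of the 17 ran from 1.02 to 1.84 with a median of 1.17. By level at 10 days the share of members was 0.671% among the 7455 identifiers under -2, which hold 50 members, 1.85% from -2 to under -1, 1.18% from -1 to under 0, and 0.722%, 0.662% and 0.673% in the brighter classes from 0 to 1, from 1 to 3 and above 3. The share was thus highest somewhat under the 75th percentile and lower on either side. Identifiers less than 1.0 above the floor at 10 days cannot reach the margin.

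The brightest member at 10 days was read by 1 probe, with a processed signal of 5036 before molt, then 7007 at 1.5 days, 4017 at 5 days and 12840 at 10 days and error estimates of 503.6, 700.7, 401.7 and 1284. After scaling, its levels were 5.34, 5.71, 5.26 and 6.87, so 3 arrays lay within 0.5 of one another and 10 days stood 2.25-fold above the highest of them. The next brightest, named by a RefSeq mRNA, was read by 4 probes and had levels of 5.598, 5.37, 5.41 and 6.64. All 4 of its probes were highest at 10 days, with margins of 0.53, 0.82, 1.17 and 1.66, the brighter probes having the smaller margins. The third, with levels of 4.86, 4.09, 3.63 and 6.26, fell by 1.24 from before molt to 5 days and then stood 2.63-fold above its starting level.

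Among members seen on all arrays the largest margin was 2.68. That member had processed signals of 44.3 before molt and 33.8, 28.3 and 250.0 at 1.5, 5 and 10 days, with error estimates of 4.71, 3.84, 3.38 and 25.0. The first 3 values lay close together and the fourth was 6.42-fold above the highest level among them. The next, an identifier named by a RefSeq mRNA with 2 probes, had levels of 0.09, -0.80, -1.51 and 2.76, and its probes gave margins of 1.94 and 3.40.

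In 1 member the peak rested on a spot that the scanner program flagged as uneven at 10 days. Its processed signal, which follows the mean over the spot, was 814.4 before molt, then 1084 at 1.5 days, 907.1 at 5 days and 3386 at 10 days. The median over the pixels of the same spots was 759.5, 892, 809 and 936. The margin was 1.84 from the processed signal and 0.24 after normexp, which starts from the pixel median. No other spot of a member's probes was flagged as an outlier on any array (1 of 224 probes).

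The rise was also set beside the program's own error estimate, whose median was 10.5% of the signal at 10 days over member probes. For the 157 members with 1 probe, the smallest difference of the scaled signal at 10 days from another array was 2.72 to 9.41 times the combined error estimate, with a median of 5.07, and for 155 it was at least 3. A difference of several errors follows largely from the 2-fold requirement and is no separate support. That estimate covers the spot and its background and not the difference between skin samples. It grew with the signal, but not in proportion near background. Over member probes its median was 12.98% of the signal before molt, 14.95% at 1.5 days and 20.95% at 5 days. Over all probes in use the medians were 10.3%, 10.3% and 10.5% on these arrays. At a margin of 1.13 the difference was 2.72 and 4.28 errors in 2 dim members and 4.94 in a bright one.

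Agreement between probes was weaker. Of the 29 members read by 2 or more probes in use (67 probes), every probe was highest at 10 days in 18, and every probe was 2-fold or more above the other arrays in 5. In 18 members some probes reached 2-fold and others did not, and in 6 none did, since the mean over probes can pass where no probe does when different arrays come second or low values fall under the floor. In most of the 11 members with a probe not highest at 10 days, that probe was the brightest over the first 3 arrays. The margin then came from a dimmer probe, often at the floor before. Probe margins were taken with each probe set to the floor, whereas the identifier's mean used probe values under it. Values under the floor of a dim probe could thus carry a margin. In 1 member the probes gave margins of 0.66 and -0.57, and the identifier 1.21. Bright members differed: the brighter probe had a margin of -0.33 and the dimmer 1.82 in a member, and 1.58 and 1.09 in another. Over the 67 probes 56 were highest at 10 days and 33 reached 2-fold, with margins from -1.97 to 3.40. The SD of the margin between probes of 1 identifier was 1.07 over these members and 0.48 over all identifiers with 2 or more probes. A choice on the mean over probes favours identifiers in which 1 probe stands out, so nothing is read from this contrast. Members read by 1 probe made up 84.4% of the group, against 77.4% of all detected identifiers. How far probes would differ for those members could not be measured.

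**Figure D4:**
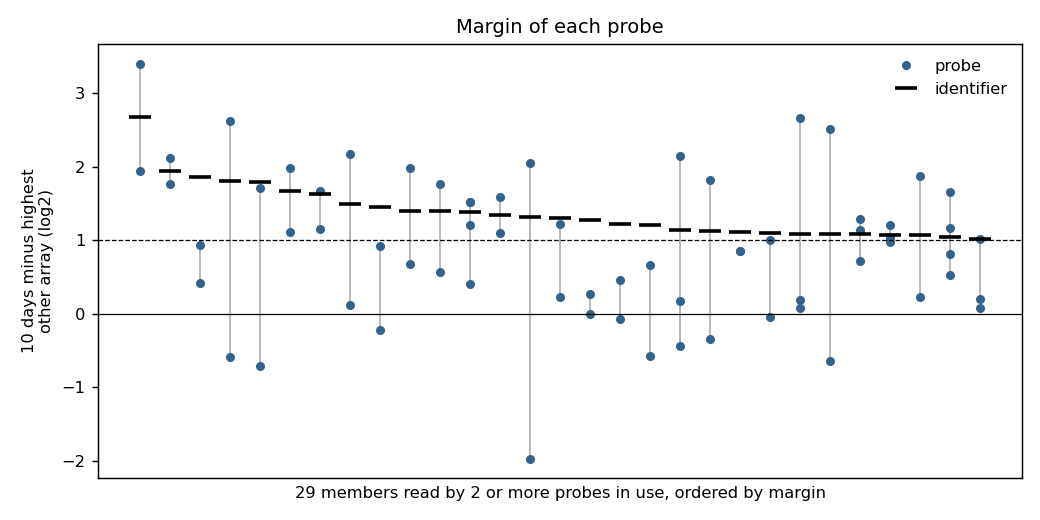
Margin of each probe (dots, log2 difference of 10 days from the highest other array) for the 29 members read by 2 or more probes in use, with black bars for the margin of the identifier, a dashed line at the 2-fold requirement and a solid line at 0. Dots use probe values set to the floor, whereas bars rest on the mean of values before the floor was set, so the scales differ. In 18 members all dots lie above 0 and in 11 at least 1 does not.

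A late peak chosen on part of an identifier's probes was then read on the rest, over the 4603 identifiers with 2 or more probes in use. On alternate probes in the order of their names, 26 identifiers had the peak. Their median margin on the remaining probes was 0.04, where that of all 4603 was -0.36. On those probes 13 of the 26 were highest at 10 days and 7 (26.9%) reached 2-fold, where 19.7% and 0.695% of all 4603 did so. Chosen the other way round, 32 identifiers were found, with a median margin of 0.11 on their remaining probes, against -0.35 over all. There 17 (53.1%) were highest at 10 days and 7 (21.9%) reached 2-fold, where 18.6% and 0.565% of all did. These shares are a description without a test, and in each direction most of the chosen identifiers did not reach 2-fold again.

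The size of the peak differed under another treatment of the spots. Normexp, a correction that starts from the pixel median and local background of each spot and keeps every value positive, was applied with an offset of 50 added to all signals. Under it 181 of the 186 members were still highest at 10 days, but 22 kept a 2-fold margin, and the median margin was 0.45. All 22 were among the 50 members above the 75th percentile at 10 days, and 13 of them were among the 17 above it on every array. Of the 136 dimmer members 0 kept the margin, and an offset of that size by construction shrinks the ratios of dim signals. The pixel statistic, the background correction and the offset all differ from the processed signal here. The corrected values were also quantile normalized, and the shares of these steps were not separated. With an offset of 1, chosen after seeing the data, 68 members kept the margin, 38 of them among the 50 brighter ones.

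**Figure D5:**
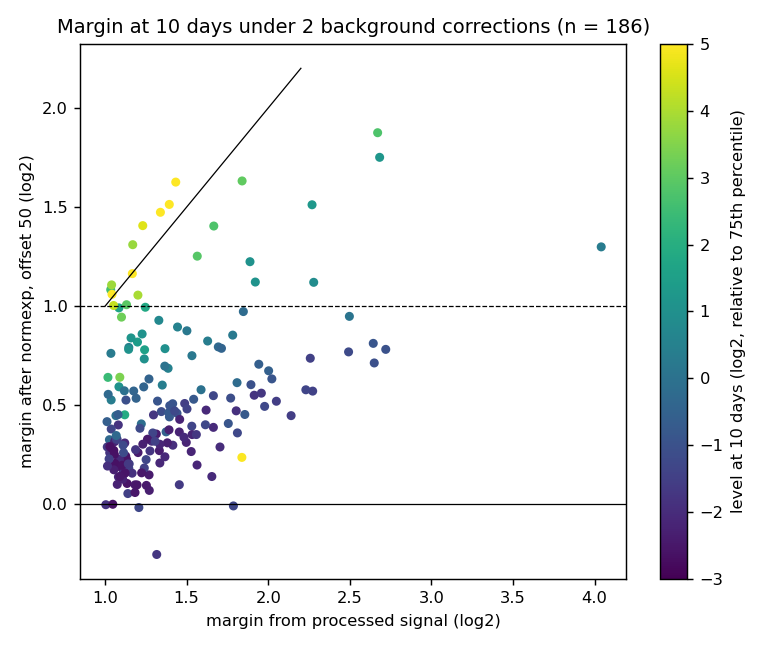
Margin of each member from the processed signal (x axis) and after normexp with an offset of 50 (y axis), both log2, coloured by the level at 10 days. Points above the dashed line keep the 2-fold requirement (22 of 186). The solid diagonal marks equal margins, and the bright member far under it at 1.84 and 0.24 is the one with the uneven spot.

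The kinds of identifier in the group, which the choice did not use, had shares near those among all detected. Identifiers named by a chicken Ensembl transcript made up 40.9% of the members and 42.6% of all detected, those named by a RefSeq mRNA 20.4% and 18.4%, and accessions starting with CR 17.2% and 18.2%. By position on the array, 0.709% to 0.861% of the probes in use read a member in 4 bands of rows, and in 4 bands of columns it was 1.02%, 0.875%, 0.65% and 0.739%. Whether identifiers in the group belong to the same gene could not be told from the files, so the number of separate genes may be under 186.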

How the data were processed

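Total RNA of goose ventral skin was labelled with Cy3 and hybridised to 4 one-colour Agilent arrays designed on the chicken build galGal3, per the file headers. The deposited intensities are processed signals from Agilent Feature Extraction 10.7 (10.7.3.1 in the headers), per the submitters' processing notes, background-subtracted and unscaled. The 4 columns of log2 values in the authors' deposited table have medians of 3.747 on 3 arrays and 3.745 at 5 days, and each matches its own array (r of at least 0.9994). Their centring is not stated in the labels, and they served as an alternative only. Spots of a probe were averaged, then the probes well above background on at least 1 array. With 1 array per group no test or p-value was possible. Members, lists and the threshold were chosen with earlier results of these data known. The pathway and cell type marker lists need gene symbols, so 0 of them could be matched and no marker of the labelled tissue was read. With no symbols, the naming rule allowed the 2 members with the largest margin among those well above background at 10 days whose probes in use all stood highest then. The other members were singled out after their values were seen. Normexp used the pixel median, since the files hold no pixel mean, and was followed by quantile normalization. The counting was tested on simulated data whose raised identifiers were brighter than most members before 10 days, so the range near the floor was not covered. Software was Python 3.11.15, numpy 2.4.6, pandas 2.3.3, matplotlib 3.10.9, R 4.3.3 and limma 3.58.1.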

Additional observations from a re-analysis of the deposited data

How the results depend on the processing

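There was no replicate to leave out. The count of 186 members was 29 under normexp with an offset of 50, 81 with an offset of 1, 120 under scaling on 8 spike-in probes, 83 with probes well above background on every array, 307 with no floor, 17 at a margin of 2.0, 781 at a margin of 0.5 and 1136 without the array before molt. The offset of 1 and leaving out an array were chosen after seeing the data. Under the 11 other settings it was 163 to 269, and 177, 175 and 174 of the members were shared under median centring, quantile normalization and the authors' deposited values. Among identifiers read by 2 or more probes, those called with every probe highest at 10 days numbered 3 under normexp in place of 18. That count was taken within the 29 identifiers called under normexp, so it does not measure probe agreement in the same members. The median margin of 1.28 was 0.45 under normexp and 1.03 under spike-in scaling. The median from before molt to 1.5 days was -0.52 under spike-in scaling and -0.16 over members seen on all arrays, and to 5 days -0.37 and -0.26. Fewer probes, a wider or narrower margin, fewer arrays or no floor change the count by construction. For the others the cause was not tested. Signals near background limit the dim members.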
